A study of Mus musculus with 8 samples.

Results

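The Gimap genes (GTPases of immunity-associated proteins) are a family of small GTP-binding proteins best known from lymphocytes. All 8 genes listed for the family, Gimap1, Gimap3, Gimap4, Gimap5, Gimap6, Gimap7, Gimap8 and Gimap9, were found by symbol among the 37979 genes of the deposited table. In search of pericyte markers, the study sequenced RNA of pericytes and smooth muscle cells (SMCs) sorted from skeletal muscle. The donor animals of both groups were Ai14+/-;SM22α-Cre+ mice, male and female and 3 to 4 months old, whose hindlimb muscle was dissociated. In them Cre under the SM22α promoter leaves a lasting tdTomato label in SMCs and any other cell that has used the promoter. Pericytes were PDGFRβ+tdTomato- cells and SMCs were PDGFRβ+tdTomato+ cells, each in 4 libraries, after a gate against CD31 (endothelial cells), CD45 (hematopoietic cells) and dead cells. Each library pooled cells from multiple sorts, and the paper names batch effects from this as a possible source of variation between replicates. Expression is given as FPKM, a fragment count scaled to transcript length and to the size of the library, so that levels of different genes can be set side by side. Means are followed by their SD over the 4 libraries of a group.

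Gimap proteins sit mostly on intracellular membranes and bind GTP through a domain that is related to that of septins and dynamins. Loss of single members, such as Gimap1 or Gimap5, leaves animals short of mature T or B cells, so the family is regarded as a set of lymphocyte survival factors. Several members are also transcribed in endothelial cells. The genes lie together in 1 cluster. In NCBI Build 37, the build the authors used, it covers 119286 bases of chromosome 6 (chr6:48597233-48716518), in the order Gimap8, Gimap9, Gimap4, Gimap6, Gimap1 and Gimap7, Gimap5 and Gimap3. Gimap6 and Gimap3 are on the minus strand and the other members on the plus strand.

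A feature through which these proteins bind GTP is visible in their coding sequences. A P-loop, the turn that holds the phosphates of GTP, was searched in frame as codons for glycine, any 4 residues, glycine, lysine, and serine or threonine, over the longest annotated coding sequence of each gene. It was found in all 8 members, once in 7 of them and 3 times in Gimap8, which has 3 GTPase domains. The matches are shown 5′ to 3′ with their 8 codons in capitals, to let the members be compared where they bind GTP:
Gimap1: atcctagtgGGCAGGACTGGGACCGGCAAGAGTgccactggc
Gimap3: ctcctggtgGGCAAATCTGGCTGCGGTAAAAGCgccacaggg
Gimap4: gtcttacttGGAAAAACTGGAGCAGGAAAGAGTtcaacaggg
Gimap5: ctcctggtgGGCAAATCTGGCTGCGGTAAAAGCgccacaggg
Gimap6: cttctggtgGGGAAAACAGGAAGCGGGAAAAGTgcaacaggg
Gimap7: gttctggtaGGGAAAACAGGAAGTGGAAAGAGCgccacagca
Gimap8 match 1: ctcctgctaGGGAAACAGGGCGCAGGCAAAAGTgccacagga
Gimap8 match 2: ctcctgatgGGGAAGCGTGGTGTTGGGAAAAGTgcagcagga
Gimap8 match 3: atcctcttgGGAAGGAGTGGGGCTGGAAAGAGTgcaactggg
Gimap9: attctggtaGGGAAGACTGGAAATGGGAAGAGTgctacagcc
The Gimap3 and Gimap5 stretches are the same in all 42 bases, although the genes had different levels in SMCs.

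Gimap3 and Gimap5 are close copies. Their coding sequences were identical at 814 of 898 aligned bases (90.6%), while the next closest pair, Gimap7 and Gimap9, reached 68.9%. The longest run that Gimap3 and Gimap5 share is 140 bases, from base 175 to 314 of the Gimap3 coding sequence and from base 187 to 326 of that of Gimap5. For any other pair the longest run was at most 17 bases. The libraries were read as 150 bases from both ends of a fragment, and how the authors' pipeline assigned a fragment that matches both genes is not stated, so the division between these 2 genes is uncertain. The shared run is shown in capitals with 30 flanking bases on each side in lower case:
Gimap3: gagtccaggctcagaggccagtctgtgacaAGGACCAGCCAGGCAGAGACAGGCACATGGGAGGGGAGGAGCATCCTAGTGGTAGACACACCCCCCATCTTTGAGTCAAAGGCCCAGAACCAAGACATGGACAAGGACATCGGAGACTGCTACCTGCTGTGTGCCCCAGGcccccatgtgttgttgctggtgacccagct
Gimap5: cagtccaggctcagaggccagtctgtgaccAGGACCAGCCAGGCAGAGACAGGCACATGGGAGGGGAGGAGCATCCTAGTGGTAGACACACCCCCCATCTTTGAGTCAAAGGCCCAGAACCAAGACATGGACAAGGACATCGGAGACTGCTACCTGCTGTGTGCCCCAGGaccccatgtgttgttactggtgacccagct
Gimap1 is also drawn in a way that touches its neighbours. Its gene model starts beside that of Gimap7, spans it and ends inside Gimap5, and it shares 81 exonic bases with Gimap7 (6.38% of that gene's exons) and 109 with Gimap5 (4.63%). The Gimap3 model holds 906 bases, all of them coding.

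All 8 Gimap genes were measured above 0 in every library, and for each of them the lowest pericyte library exceeded the highest SMC library, as it did for 12.1% of the 27414 genes tested. With limma on log2(FPKM + 1), 8 of 8 members were higher in pericytes at a q value (Benjamini-Hochberg adjusted over all genes tested) below 0.05, against 10.6% of all genes. At the rule of the study, which adds a log2 fold change above 2, 7 of 8 members were pericyte-enriched, against 3.24% of all genes. The exception was Gimap8. After TPM scaling 5 of 8 passed, since Gimap1 and Gimap5 no longer did. The fold threshold alone was passed by 3.36% of all genes. The log2 fold changes, pericytes over SMCs, ran from 1.74 for Gimap8 to 6.11 for Gimap3, with a median of 2.40 over the family and 0.02 over all genes tested. Added over the family, the Gimap genes had 1534 ± 145.0 FPKM over the pericyte libraries against 248 ± 54.3 FPKM over those of SMCs. The members were thus alike in direction and unlike in size, and 2 of them, Gimap3 and Gimap7, stood apart with the largest differences. In sorted bulk samples, fewer cells of a type and less RNA per cell cannot be told apart.

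**Figure D1:**
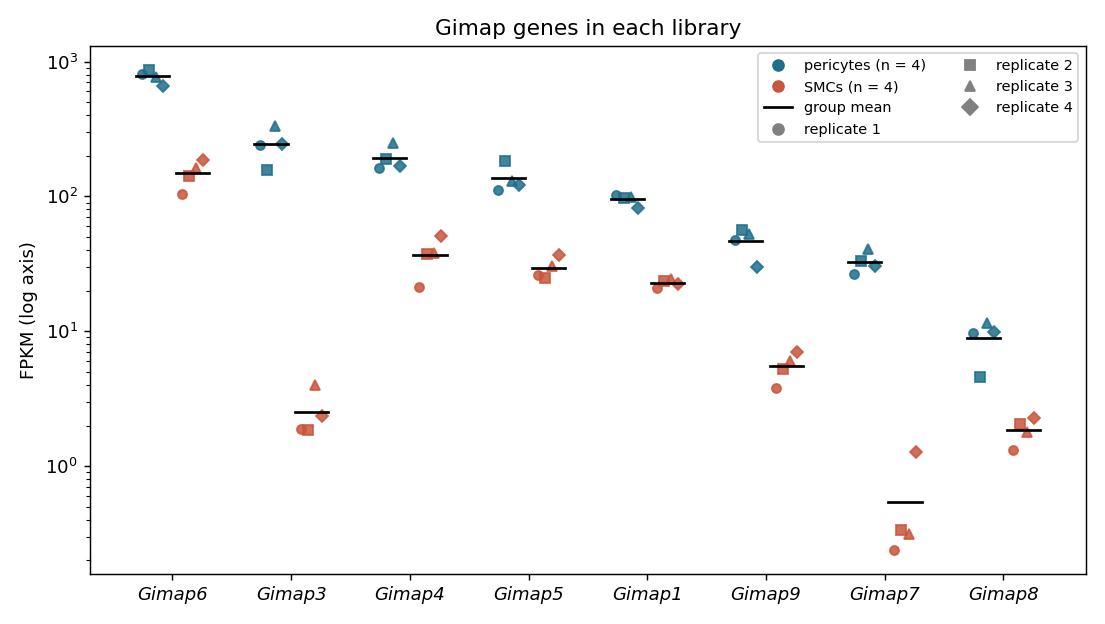
FPKM (log axis) of each Gimap gene in 4 pericyte and 4 SMC libraries, with symbols for the replicates and a line at the group mean. All pericyte points lie above all SMC points of the same gene, and the gap is widest for Gimap3 (mean 244 against 2.52 FPKM) and Gimap7 (32.7 against 0.540 FPKM).

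Gimap3 is a membrane-anchored member whose human counterpart is a pseudogene. It had 241, 157, 333 and 244 FPKM in pericyte replicates 1 to 4, and 1.89, 1.85, 4.01 and 2.35 FPKM in SMC replicates 1 to 4. The lowest pericyte library was 39.2 times the highest SMC library. The mean was 96.7 times as high in pericytes, and the log2 fold change was 6.11 (SE, the standard error, 0.27; q = 1.9e-05 by limma). Only 0.161% of the genes tested had a log2 fold change of 6 or more towards pericytes. Within the pericytes, replicate 2 was lowest and replicate 3 highest.

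Gimap7, whose protein forms dimers that speed up GTP hydrolysis, had the second largest difference. Its values were 26.8, 33.1, 40.7 and 30.4 FPKM in pericyte replicates 1 to 4 and 0.240, 0.334, 0.312 and 1.27 FPKM in SMC replicates 1 to 4. SMC replicate 4 stood well above the other SMC libraries and was still far below every pericyte library. The log2 fold change was 4.48 (SE 0.22, q = 2.9e-05 by limma), and the mean FPKM was 60.6 times as high in pericytes, or 111 times without SMC replicate 4. The size of this difference depends on the pseudocount, since 3 of the 4 SMC values are below 1 FPKM. With a pseudocount of 0.1 the log2 fold change was 5.92. The number of fragments behind such low SMC values is unknown, so these ratios are uncertain in size.

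Gimap6, which binds the autophagy protein GABARAPL2, was the most abundant member in both groups. Pericyte replicates 1 to 4 had 809, 867, 775 and 661 FPKM, and SMC replicates 1 to 4 had 105, 142, 162 and 186 FPKM. It made up 50.7% ± 4.09 of the summed Gimap FPKM in pericytes and 59.7% ± 1.13 in SMCs. Its log2 fold change was 2.40 (SE 0.18, q = 1.6e-04 by limma). Gimap4, linked to the death of T cells after activation, had almost the same fold change. It had 162, 189.8, 250.1 and 168 FPKM in pericyte replicates 1 to 4 and 21.4, 37.2, 38.1 and 50.6 FPKM in SMC replicates 1 to 4 (log2 fold change 2.39, SE 0.27, q = 8.4e-04 by limma). In both genes SMC replicate 1 was lowest and SMC replicate 4 highest.

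Gimap5, whose loss causes a severe shortage of T cells in rats and mice, had 111, 184, 129.9 and 121 FPKM in pericyte replicates 1 to 4. In SMC replicates 1 to 4 it had 26.0, 24.7, 30.2 and 37.01 FPKM. Its log2 fold change was 2.16 (SE 0.19, q = 3.0e-04 by limma) and 1.94 after TPM scaling, below the fold threshold, and pericyte replicate 2 was the highest library, the reverse of Gimap3. Gimap1, which mature B and T cells need, was the steadiest member. It had 102, 96.8, 98.9 and 82.7 FPKM in pericyte replicates 1 to 4 and 20.9, 23.8, 24.5 and 22.5 FPKM in SMC replicates 1 to 4, with coefficients of variation of 9.10% and 6.86%. Its log2 fold change was 2.00 (95% confidence interval 1.80 to 2.21, limma q = 1.9e-05), so that its q value was as low as that of Gimap3 while its fold change lay at the threshold. It was between 1.96 and 2.00, just under the threshold, when pericyte replicate 1, 2 or 3 or SMC replicate 1 or 4 was left out, and 1.78 after TPM scaling.

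Gimap9 lay between these genes and the pair with large differences. Pericyte replicates 1 to 4 had 47.7, 56.5, 52.2 and 29.9 FPKM and SMC replicates 1 to 4 had 3.80, 5.22, 6.04 and 7.06 FPKM, a log2 fold change of 2.85 (SE 0.24, q = 2.4e-04 by limma). Gimap8, the largest member, with 688 codons against 291 to 328 in the others, was the least abundant one in pericytes. It had 9.76, 4.57, 11.4 and 9.88 FPKM in pericyte replicates 1 to 4 and 1.32, 2.05, 1.79 and 2.29 FPKM in SMC replicates 1 to 4. The groups did not overlap, but the lowest pericyte library was only 1.99 times the highest SMC library. Its log2 fold change of 1.74 (95% confidence interval 1.13 to 2.35, limma q = 0.00313) missed the fold threshold on this scale and was 2.15 with a pseudocount of 0.1, where it passed.

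The order of the levels differed between the groups mainly through Gimap3. In pericytes the order by mean FPKM was Gimap6, Gimap3, Gimap4, Gimap5, Gimap1, Gimap9, Gimap7 and Gimap8. The neighbours Gimap3 and Gimap4, Gimap4 and Gimap5, and Gimap9 and Gimap7 overlapped in their library values, and the other neighbours did not. In SMCs the order was Gimap6, Gimap4, Gimap5, Gimap1, Gimap9, Gimap3, Gimap8 and Gimap7. There, Gimap4 and Gimap5, Gimap9 and Gimap3, and Gimap3 and Gimap8 overlapped. Gimap3 thus took the second place in pericytes and the sixth in SMCs. Its share of the summed Gimap FPKM was 15.9% ± 4.30 in pericytes and 1.02% ± 0.35 in SMCs.

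The near-identical pair was compared within each library. On the log2(FPKM + 1) scale, Gimap3 minus Gimap5 was 1.11, -0.23, 1.35 and 1.003 in pericyte replicates 1 to 4 and -3.22, -3.17, -2.64 and -3.51 in SMC replicates 1 to 4. Gimap3 was the higher of the pair in 3 of 4 pericyte libraries, and Gimap5 was 7.53 to 15.8 times as high as Gimap3 in the SMC libraries. The difference between the groups in this quantity was 3.95 (two-sided exact permutation test, p = 0.0286, the smallest value that 4 against 4 libraries allow). The pair was chosen with earlier results of these data known, so this p-value is no independent support for the difference. Pericyte replicate 2, the 1 pericyte library where Gimap5 was higher, had the largest FPKM sum of all libraries and both the lowest Gimap3 and the highest Gimap5 value of its group, and without it the difference was 4.29. Fragments that match both genes may have been divided unequally between libraries, and this was not tested.

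**Figure D2:**
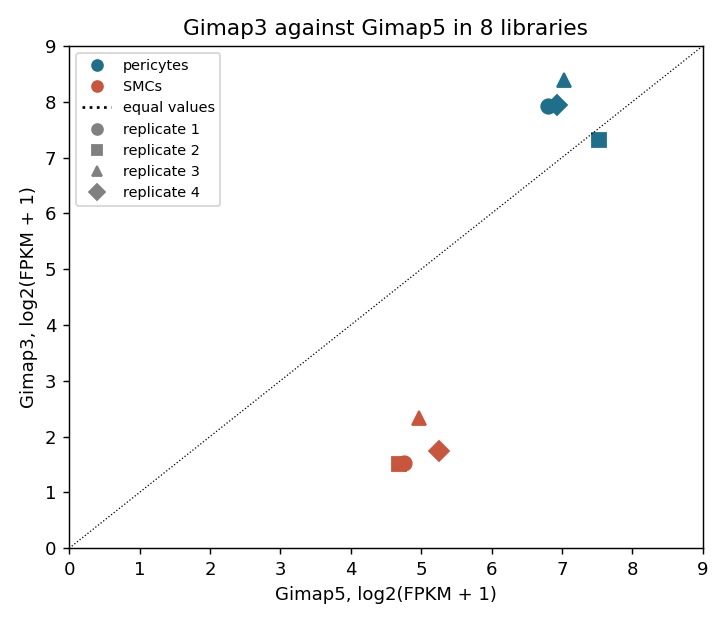
Log2(FPKM + 1) of Gimap3 (vertical) against Gimap5 (horizontal) in 8 libraries, with a dotted line where both are equal. The SMC libraries lie 2.64 to 3.51 log2 units below the line, 3 pericyte libraries lie 1.003 to 1.35 above it, and pericyte replicate 2 lies 0.23 below it.

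Since the coding sequences are so close, the stretches before the start of each gene were also read. They are given as the 250 bases upstream of the RefSeq start in GRCm38.p6, a later build than that of the expression table, at chr6:48770852-48771101 on the minus strand for Gimap3 and chr6:48745947-48746196 on the plus strand for Gimap5. Capitals mark AGGAAG on either strand, a core of the sites bound by ETS factors:
Gimap3: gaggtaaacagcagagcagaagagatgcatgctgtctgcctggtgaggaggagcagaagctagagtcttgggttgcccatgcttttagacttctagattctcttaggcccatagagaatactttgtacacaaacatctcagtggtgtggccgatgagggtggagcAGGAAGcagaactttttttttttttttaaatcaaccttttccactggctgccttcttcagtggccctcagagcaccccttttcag
Gimap5: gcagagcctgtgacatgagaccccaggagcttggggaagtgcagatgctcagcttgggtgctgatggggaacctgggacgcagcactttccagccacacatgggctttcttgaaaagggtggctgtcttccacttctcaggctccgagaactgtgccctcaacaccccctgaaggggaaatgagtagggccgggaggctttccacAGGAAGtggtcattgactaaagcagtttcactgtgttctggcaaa
RefSeq upstream windows were found for all 8 members, 9 windows in all because Gimap8 has 2 starts. AGGAAG or its reverse complement CTTCCT was present in 7 of the 9 windows, of 7 members, and in 29.5% of 32851 mouse windows of the same length. Gimap6 was the member without these letters, and other forms of ETS sites were not searched. The RUNX-type letters TGTGGT or ACCACA were in the windows of 3 members (Gimap1, Gimap4 and Gimap7) and in 14.05% of all windows. A run of letters is no proof of binding, and the 2 motifs can share no more than the base at their ends.

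The genes around the cluster were examined to see how far the difference reached. Within 250 kb on either side and between the members, 24 other genes are annotated and 18 were tested, with a median log2 fold change of 0.00. Only 11 of the 18 reached a mean of 1 FPKM in either group. The rest can hardly differ on this scale, which draws the median towards no difference. At a limma q value below 0.05, pericytes had the higher level of 2 of these 18 genes (10.6% of all genes tested) and SMCs that of 4 (11.2%). Gm3345, an uncharacterized transcript inside the cluster, had 14.7 ± 5.03 FPKM over the pericyte libraries against 0.633 ± 0.179 FPKM over those of SMCs, a log2 fold change of 3.21 (limma q = 1.0e-04). It lies within the Gimap1 gene on the opposite strand and overlaps 103 of its exonic bases, so reads within that overlap cannot be assigned to either gene without strand. AI854703, next to Gimap8, had a log2 fold change of 1.41 (limma q = 0.00136).

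The nearest protein-coding genes went the other way or did not pass. Rarres2, which encodes the chemoattractant chemerin, had 550.3 ± 108 FPKM over the SMC libraries against 91.3 ± 40.5 FPKM over those of pericytes, a log2 fold change of -2.69 (limma q = 0.00223). Atp6v0e2, a subunit of the vacuolar proton pump, had a log2 fold change of -1.74 (limma q = 4.7e-04). Zfp467, a zinc finger factor, had -1.28 (limma q = 0.0381), and Tmem176b, a membrane protein of myeloid and dendritic cells, had -0.92 (limma q = 0.0442). Repin1 (log2 fold change -0.41), Lrrc61 (0.77), Zfp775 (0.19), Krba1 (-0.06) and Tmem176a (-0.74) did not pass (limma q = 0.175, 0.181, 0.733, 0.942 and 0.213). Sspo, Gm5111, 1700026J14Rik, Abp1, 1600015I10Rik, Doxl2 and Svs1 had means below 1 FPKM in both groups, and none of them passed.

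**Figure D3:**
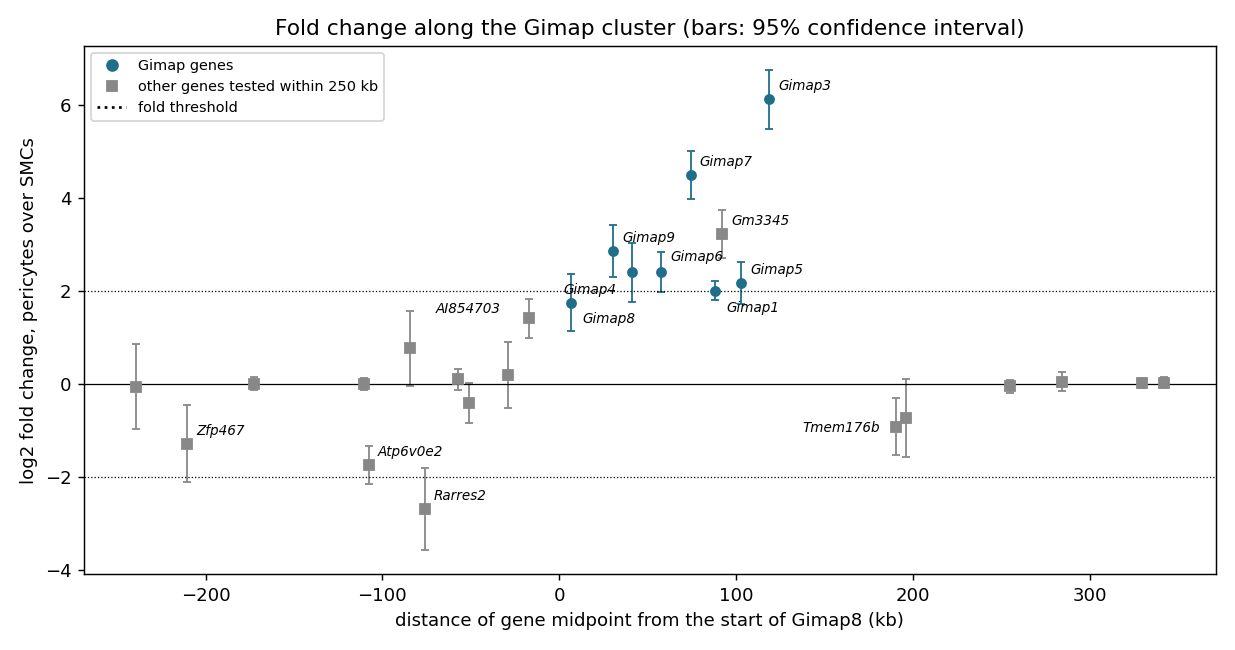
Log2 fold change, pericytes over SMCs, of the Gimap genes (circles) and of the other tested genes within 250 kb (squares), against the distance of each gene's midpoint from the start of Gimap8; bars are 95% confidence intervals from limma and dotted lines mark the fold threshold of 2. The 8 Gimap genes and Gm3345 lie between 1.74 and 6.11, and Rarres2 is the lowest point at -2.69.

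The cells behind these values were looked at through marker genes, because the sort gated out CD45+ and CD31+ cells. Ptprc, the gene of CD45, had 175 ± 65.6 FPKM over the pericyte libraries against 8.16 ± 3.18 FPKM over those of SMCs (limma q = 4.0e-04), so that its transcript was measured in libraries from which CD45+ cells had been gated out. Every list of lymphoid markers moved with the Gimap genes. Of the T cell markers, 12 of 12 were pericyte-enriched (3.24% of all genes; median log2 fold change 5.68), and their summed level was 1897 to 2637 FPKM in pericyte libraries and 23.9 to 39.7 FPKM in SMC libraries. The sums ran from 918 to 2134 and from 10.8 to 34.5 FPKM for B cell markers, of which 8 of 9 were pericyte-enriched, and from 1082 to 2559 and from 20.7 to 26.5 FPKM for NK cell markers, of which 7 of 7 were. The pan-leukocyte markers were enriched in 8 of 8 cases, with sums of 4794 to 7868 and 289 to 390 FPKM. No marker of these lists was at 0 in a whole group. The part of these cells in the Gimap result was not tested.

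Endothelial markers were higher in SMCs at q below 0.05 in 10 of 12 cases (11.2% of all genes) and SMC-enriched in 9 (2.66% of all genes), with summed levels of 142 to 255 FPKM in pericyte libraries and 727 to 1909 FPKM in SMC libraries. Pecam1, the gene of CD31, had 45.5 ± 15.02 FPKM over the pericyte libraries against 197 ± 83.6 FPKM over those of SMCs (log2 fold change -2.06, limma q = 0.00873). Myeloid markers overlapped in their sums (1005 to 1937 and 1380 to 2077 FPKM), and 5 of 10 were higher in SMCs. Mural cell markers had sums of 614 to 1919 FPKM in pericytes and 1826 to 5819 FPKM in SMCs, and 1 of 12, Rgs5, passed q below 0.05 (higher in SMCs, chosen after its value was seen). Pdgfrb, which defined both groups in the sort, had 9.70 ± 6.59 FPKM over the pericyte libraries against 47.4 ± 37.2 FPKM over those of SMCs, and the groups overlapped. Tagln, the gene of SM22α, had 343 ± 193 and 896 ± 495 FPKM and also overlapped, so these libraries are called pericytes and SMCs by their gate. Of 9 fibroblast markers, 7 were higher in SMCs. The other 2, Dcn and Gsn (chosen after their values were seen), are listed at 0 in every SMC library, which can be a failed estimate, so no direction is read from them.

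The Gimap genes differed in how much of the pericyte level was left in the SMC libraries. Relative to the pericyte mean, the SMC libraries held 0.757% to 1.64% for Gimap3 and 0.733% to 3.89% for Gimap7. These ranges overlap those of the summed T cell markers (1.10% to 1.83%), B cell markers (0.777% to 2.48%) and NK cell markers (1.32% to 1.69%). Gimap7 was at 0.733%, 1.02% and 0.953% in SMC replicates 1 to 3 and at 3.89% in replicate 4. No single SMC library of Gimap7 thus lay within the T cell or NK cell range. Ptprc was left at 2.47% to 6.78% and the pan-leukocyte markers at 4.81% to 6.49%. The other 6 members were left at more than these summed levels in every SMC library, from 8.15% to 15.2% for Gimap9, from 11.1% to 26.3% for Gimap4, from 13.5% to 23.98% for Gimap6, from 14.9% to 25.7% for Gimap8, from 18.1% to 27.1% for Gimap5 and from 22.0% to 25.8% for Gimap1. Single leukocyte markers came close to these values. Lcp1, an actin-bundling protein, was left at 6.15% to 14.9% and Laptm5, a lysosomal membrane protein, at 3.05% to 12.2%, and Cd22, a B cell receptor inhibitor chosen after its values were seen, at 1.01% to 12.4%. The range of Lcp1 overlaps those of Gimap9, Gimap4, Gimap6 and Gimap8 when libraries are pooled. Within each SMC library, all 6 members lay above every marker of the T cell, B cell, NK cell and pan-leukocyte lists, by little in replicates 1 and 4, where Gimap9 was at 8.15% and 15.2% and the highest marker (Cd52, then Lcp1) at 7.83% and 14.9%. Myeloid markers were left at more, with sums of 100.5% to 151% of the pericyte mean. Gimap5 and Gimap3 fell on different sides of the summed pan-leukocyte range, subject to the uncertain division of their fragments.

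Among the SMC libraries, the endothelial marker sum was lowest in replicate 1 and highest in replicate 4, at 389%, 474%, 886% and 1020% of the pericyte mean in replicates 1 to 4, and the mural marker sum had the same order (144%, 166%, 276% and 460%). Gimap4, Gimap6 and Gimap9 also had this order over the 4 SMC libraries. Ptprc was lowest in replicate 1 and highest in replicate 4 too, and the T cell, pan-leukocyte, myeloid and fibroblast marker sums were highest in replicate 4, while the B cell and NK cell marker sums were highest in replicate 2. SMC replicate 1 was the lowest SMC library for 6 of 8 members and SMC replicate 4 the highest for 6 of 8. The order of 4 libraries is a description, and the part of any of these cell types in it was not tested.

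**Figure D4:**
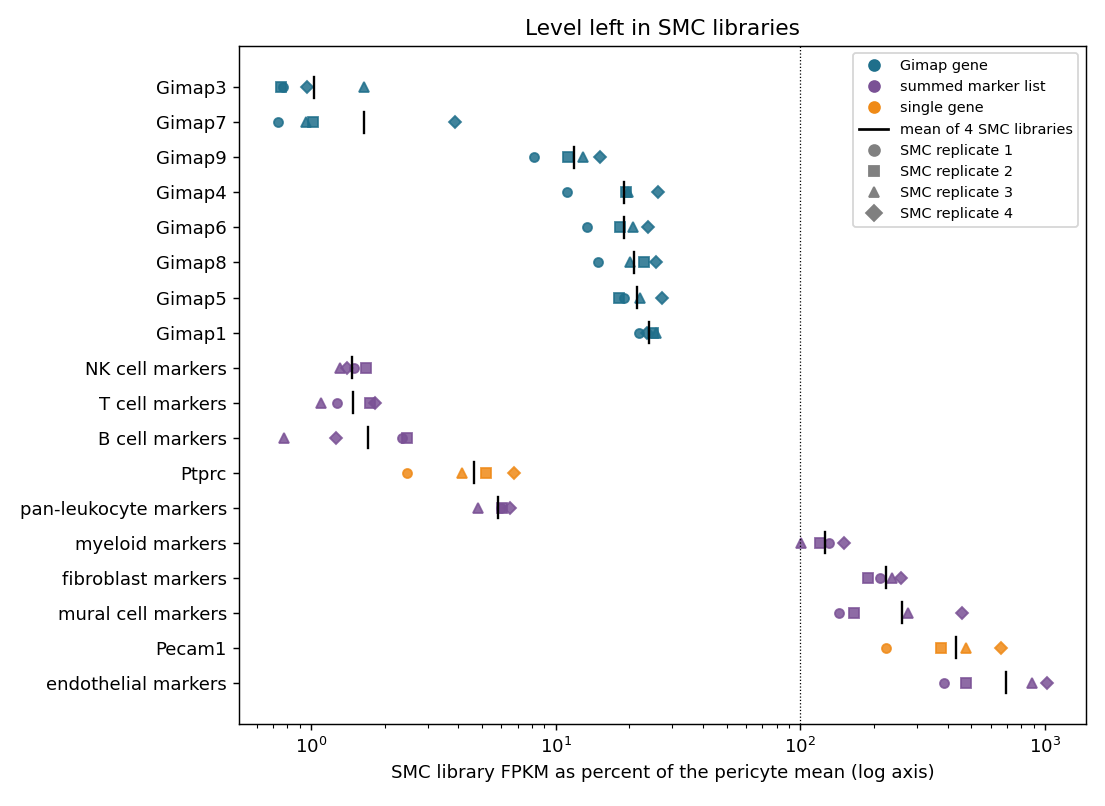
FPKM of each of the 4 SMC libraries as a percent of the pericyte mean (log axis) for the Gimap genes, the summed marker lists, Ptprc and Pecam1, with a bar at the mean and a dotted line at 100%. Gimap3 and Gimap7 (means 1.03% and 1.65%) lie near the lymphocyte markers, the other Gimap genes lie between 11.9% and 24.1%, and the endothelial markers lie at 692%. The mean of Gimap7 is raised by SMC replicate 4 (3.89%), the other SMC libraries lying at 0.733% to 1.02%.

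Genes that work with Gimap proteins were looked up in lists. Il7r and Il2rg, subunits of the interleukin-7 receptor that keeps naive T cells alive, were both pericyte-enriched. Il2rg had 1257 ± 303 FPKM over the pericyte libraries against 115 ± 29.1 FPKM over those of SMCs, and Il7r had 69.0 ± 5.77 and 1.75 ± 0.51 FPKM, with log2 fold changes of 3.45 and 4.69 (limma q = 8.6e-05 and 4.9e-06). Jak1, a kinase of this receptor, had a log2 fold change of 1.31 (limma q = 0.0466) and Stat5b, its transcription factor, had 1.32 (limma q = 0.109). Of the 7 genes of the list, 3 passed towards pericytes (10.6% of all genes) and 1 towards SMCs (11.2% of all genes, near the share of the list), the ligand gene Il7 (log2 fold change -0.76, limma q = 0.0041, chosen after its value was seen).

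The BCL2 family, which sets the threshold for mitochondrial cell death and to which several Gimap proteins have been linked, was read next. Of its 12 genes, 4 passed towards pericytes (10.6% of all genes) and 2 towards SMCs (11.2% of all genes, a share near that of the list) at q below 0.05, and none passed the fold threshold (median log2 fold change 0.56). The 4 genes, chosen after their values were seen, were Bcl2l11 (log2 fold change 1.94), Bcl2 (1.60), Bid (1.59) and Pmaip1 (1.32), of which Bcl2 protects from death and the others promote it. Bad (-1.11, limma q = 0.0197) and Bcl2l2 (-0.84, chosen after its value was seen) were higher in SMCs. Bax (0.77, limma q = 0.113), Mcl1 (-0.20) and Bcl2l1 (-0.31) did not pass.

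The ATG8 family of autophagy proteins, which contains the Gimap6 partner, had 0 of 5 members that passed towards pericytes at q below 0.05, where 10.6% of all genes did, so that the count shows nothing particular to the list. Gabarapl2 had 187 ± 75.3 FPKM over the pericyte libraries against 180.2 ± 9.53 FPKM over those of SMCs, a log2 fold change of -0.02 (95% confidence interval -0.57 to 0.54, limma q = 0.977). Map1lc3b (-0.11), Gabarap (-0.77) and Map1lc3a (-1.36) did not pass, and Gabarapl1 was higher in SMCs (-1.40, limma q = 4.9e-04, chosen after its value was seen). Among GSK3 and NFAT genes, set beside Gimap5 because that protein has been tied to GSK3β, Nfatc3, a transcription factor of activated T cells, was pericyte-enriched (log2 fold change 2.66, limma q = 0.00244). Gsk3b (0.42), Nfatc1 (1.67) and Nfatc2 (0.27) did not pass.

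Other GTPase families were read in the same way. Of 6 immunity-related GTPases, which are induced by interferon and act on vacuoles that hold microbes, 5 were higher in SMCs (11.2% of all genes) and none in pericytes, and the median log2 fold change was -1.45. Iigp1 had 287 ± 116 FPKM over the SMC libraries against 24.3 ± 10.8 FPKM over those of pericytes (log2 fold change -3.51, limma q = 0.00115), and Irgm1 had a log2 fold change of -1.56 (limma q = 0.00332). Of 10 guanylate-binding proteins, 4 were also higher in SMCs, among them Gbp2 (-1.78, limma q = 0.00166), and 1 was higher in pericytes (10.6% of all genes), Gbp8 (1.61, chosen after its value was seen).

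Of 12 septins, which form filaments, 2 were higher in pericytes, near the 10.6% of all genes, and 4 in SMCs, against 11.2%. Sept1 had a log2 fold change of 4.63 (137 ± 22.8 against 4.61 ± 1.22 FPKM, limma q = 1.2e-05) and Sept6 had 1.40, both chosen after their values were seen, while Sept4 (-2.22) and Sept2 (-1.13) were higher in SMCs. Of 4 dynamins, which pinch off membranes, 2 were higher in SMCs (11.2% of all genes), Dnm3 (-2.04) and Dnm1 (-1.16). Dnm2 (1.06, limma q = 0.206) and Dnm1l (-0.18) did not pass.

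Genes nearest to the median Gimap profile were ranked over the 8 libraries among 14371 other genes whose mean reached 1 FPKM in either group. This profile was the median member level in each library, taken before any centring. Its means were 6.80 in pericytes and 3.63 in SMCs on the log2(FPKM + 1) scale. It therefore differed more between the groups than the typical member, the median log2 fold change of the members being 2.40. The measure was the root mean square difference from this profile, on the same scale after each profile's own mean was subtracted. The first was Prkcb (0.139 log2 units), a protein kinase C isoform used in B cell receptor signalling, with 13.1 ± 1.57 FPKM over the pericyte libraries against 0.679 ± 0.219 FPKM over those of SMCs. It was followed by C920025E04Rik (0.149), Trav15d-1-dv6d-1 (0.153), a T cell receptor alpha segment, Il27ra (0.153), the receptor of interleukin-27, and Was (0.175), an actin regulator of blood cells. Their log2 fold changes were 3.08 to 3.34. Of the Gimap genes, Gimap9 was nearest to this median profile (0.256) and Gimap3 farthest from it (1.52). Gimap6 and Gimap4, whose log2 fold changes of 2.40 and 2.39 lay at the family's median, were at 0.402 and 0.462. Closeness to this profile is thus not closeness to the typical fold change of the family. The measure describes 8 libraries in 2 groups, and most of it is the difference between the groups.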

How the data were processed

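RNA from 4 pericyte and 4 SMC samples was sequenced. The authors checked reads with FastQC, aligned them to NCBI Build 37 with Bowtie2 and TopHat and an Ensembl annotation, and deposited FPKM for 37979 genes; the program that computed FPKM and its use of strand are not given in the sources used here. FPKM are not counts, so the reads behind a value are unknown. Relative depths were estimated from the most common ratio between 2 libraries over genes detected below 0.3 FPKM in both, and ran from 0.867 to 1.07. This takes such values to rest on equal small numbers of fragments, which was not tested. The library sums ran from 656405 to 1190440 FPKM, and 12713 to 13194 genes reached 1 FPKM. No 2 columns were identical.

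The test was limma 3.58.1 (R 4.3.3) on log2(FPKM + 1), with Benjamini-Hochberg adjustment over the 27414 genes above 0 in at least 1 library. The call rule (log2 fold change above 2, q below 0.05) was that of the study. On simulated data, the rule found 187 (93.5%) of 200 genes given a difference of 4 log2 units, and 0 of the rest, which were given none. Most members differed by less than that, so the simulation does not show how the rule performs near its fold threshold. The members, the gene lists and the pair of Gimap3 and Gimap5 were chosen with earlier results of these data known. Named genes were the members, all tested neighbours within 250 kb, up to 4 genes per list with the highest mean level, the 5 nearest profiles, and the genes behind the sort; others are marked in the text. Replicates are libraries pooled from multiple sorts, so p-values measure the spread between such pools. Annotation came from GENCODE version M1 (NCBI Build 37) and upstream windows from RefSeq (GRCm38.p6). Alternatives covered pseudocount, filter, scaling, replicate block, variance trend and each library left out. Sequence comparisons used Biopython 1.88 in Python 3.11.15, and figures matplotlib 3.10.9.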

Additional observations from a re-analysis of the deposited data

Results flagged for a closer look

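Gimap7 in SMC replicate 4 stood apart from the other 3 SMC libraries, at 1.19 on the log2(FPKM + 1) scale (1.27 FPKM), where the others had 0.240 to 0.334 FPKM. Its gap to the nearest library was 0.880 of the group's range, above Dixon's 95% critical value for 4 samples. It was the 1 such case among 20 groups of 4 libraries checked, and chance gives about 5% of groups such a gap. Without this library the log2 fold change of Gimap7 was 4.69 in place of 4.48.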

How the results depend on the processing

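All 8 members kept a q value below 0.05 and a higher level in pericytes in all 16 alternatives, the largest q being 0.0247 (Gimap8). The number of members past the fold rule was 7 in 8 alternatives, 6 in 6, 5 with TPM scaling and 8 with a pseudocount of 0.1. With each library left out in turn it ran from 6 to 7, and the member lost was Gimap1, at 1.96 to 2.00. Gimap1 also missed the rule with TPM scaling (1.78) and quantile normalization (1.95), and Gimap5 with TPM scaling (1.94). Gimap3 minus Gimap5 ran from 3.77 to 4.29 with each library left out (exact permutation p = 0.0286, the smallest possible).

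Between pericyte and SMC libraries of 1 number, deviations from the group mean correlated across 13612 genes at 0.0794 to 0.474, and not every library matched its own number best, so the numbers were not taken as pairs. With the replicate block, 881 genes in place of 888 were pericyte-enriched, 7 of 8 members passed the fold rule, and Gimap3 minus Gimap5 was 3.95 with an exact sign-flip p of 0.125, the smallest that 4 pairs allow. The number of fragments behind single FPKM values is unknown.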
